A study of Homo sapiens with 22 samples.

Results

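The comparison described here set untreated LUHMES cells that overexpressed alpha-synuclein against untreated wild-type LUHMES cells. It was chosen by the sample titles alone, which name 4 libraries of each genotype, or 8 of the 22 libraries of the series. LUHMES is a conditionally immortalised human mesencephalic line that can be differentiated into neurons with dopaminergic features, and the design text calls the cells differentiated. Polyadenylated RNA was sequenced, and the other 14 libraries came from cells exposed to 6-hydroxydopamine (6-OHDA), a neurotoxin taken up by dopaminergic neurons, some of them with quercetin or rutin. According to that text the series was built to model Parkinson disease in culture. The alpha-synuclein group carried the genotype alpha-synuclein overexpressed and no treatment, and the wild-type group carried the genotype wild type and no treatment. The sources used here name neither the vector and promoter behind alpha-synuclein nor the number of clones or days of differentiation. Whether the 4 libraries of a group are separate cultures is likewise unstated, and the p-values reflect spread among libraries that may be technical.

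Alpha-synuclein is a small presynaptic protein that binds the membranes of synaptic vesicles and takes part in their clustering and in transmitter release. In Parkinson disease it accumulates in Lewy bodies and Lewy neurites, and raised expression of the protein is used as a disease model. Midbrain dopaminergic neurons, with their long and densely branched axons, are among the cells most affected.

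All 8 libraries were read on lane 1 of the sequencer. Alpha-synuclein libraries held 8107063, 17235347, 20667106 and 19678886 counts, and wild-type libraries held 6787772, 6443285, 6106908 and 10609641 counts. The alpha-synuclein libraries were thus the deeper ones on average, although the ranges overlapped (exact two-sided permutation test p = 0.0571, where 4 against 4 libraries can give no p below 0.0286). Levels are given in CPM (counts per 1e6 counts of a library), with library totals scaled by the trimmed mean of M-values (TMM), and 3 counts corresponded to 0.168 to 0.429 CPM in alpha-synuclein and 0.324 to 0.561 CPM in wild-type libraries. Alpha-synuclein replicates 3 and 4 carry 4 barcode numbers in their library names, and the other 6 libraries carry 1. The first principal component of these 8 libraries held 22.9% of the variance and did not separate the genotypes, with scores of -38.002 to 12.098 in alpha-synuclein and -28.782 to 32.521 in wild-type libraries.

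Few genes were called between the genotypes, and most called differences were below 2-fold. Of 16601 genes tested with edgeR's quasi-likelihood test, 108 (0.651%) passed a Benjamini-Hochberg adjusted p of 0.05 and are referred to as called. Of these, 62 (0.373% of genes tested) were higher and 46 (0.277%) were lower in alpha-synuclein cells, and 32 differed at least 2-fold, 15 of them higher and 17 lower. The median log2 fold change of all genes tested was 0.00052. In 56 of the higher and 45 of the lower genes the 4 alpha-synuclein libraries lay entirely on one side of the 4 wild-type libraries, against 5.34% of all genes tested. The genes were called from these same libraries, so the higher share among them is largely set by that choice and is no test. The higher genes were 57 protein-coding genes and 5 pseudogenes, and the lower genes were all 46 protein coding.

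**Figure D1:**
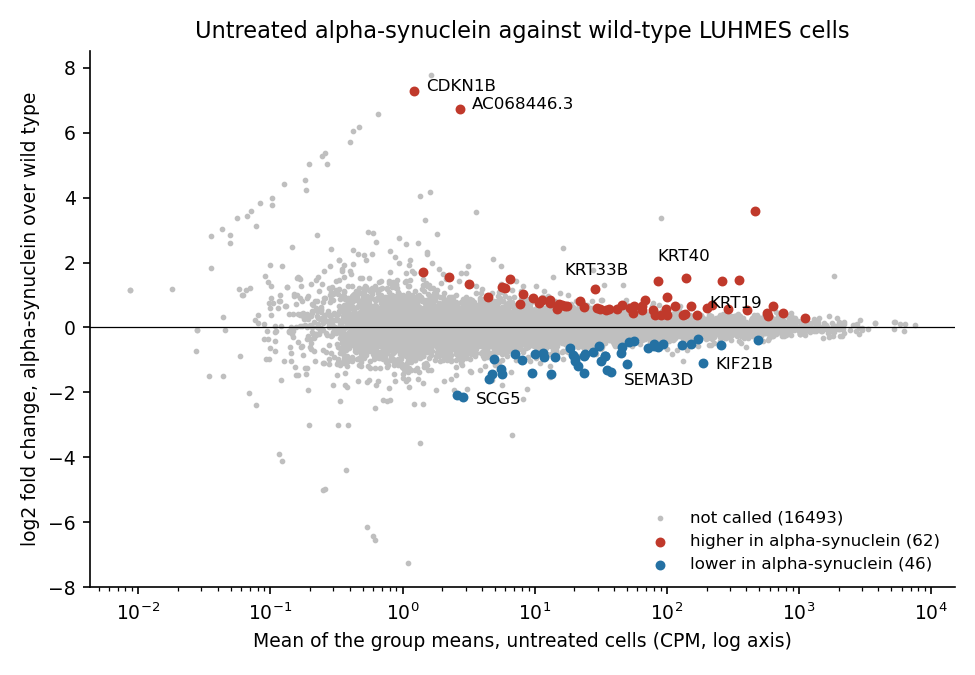
Log2 fold change of alpha-synuclein over wild type for each of the 16601 genes tested (y axis) against the mean of both group means in CPM (x axis, log scale). Red points are the 62 called genes that were higher and blue points the 46 that were lower; among the labelled genes KRT40 lies at 1.52 and SEMA3D at -1.38.

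How many genes were called depended on single libraries. Alpha-synuclein replicate 4, with 4 barcode numbers, had the lowest alpha-synuclein value in 33 of the 46 lower genes and the highest in 33 of the 62 higher genes. Without it 33 genes were called, 20 higher and 13 lower, all of them among the 108, and without both libraries that carry 4 barcode numbers 11 were called. Without alpha-synuclein replicate 2 the count was 239, without alpha-synuclein replicate 3 it was 72, and without wild-type replicate 1, 3 or 4 it was 61, 47 and 66 in that order. Genes named below as called only without alpha-synuclein replicate 2 thus passed in a setting where calls rose from 108 to 239. Treated libraries shared in the estimate of spread, and leaving out replicate 4 of the treated alpha-synuclein group gave 197 calls. KRT19, KRT40, KRT33B and AC068446.3 were called in each of the 19 alternative analyses, which left out libraries or changed the scaling, the filter, the test or the libraries fitted. SEMA3D was called in 18 and FEZ1, GPR142, KIF21B and SFMBT2 in 17 each, and the other named genes in 16 or fewer. Of the 108 calls 31 held when each of the 8 untreated libraries was left out in turn, and 107 kept their sign in all 19 alternatives. Each named call below that was lost without 1 untreated library was also lost without both libraries that carry 4 barcode numbers. There the edgeR adjusted p of these genes ran from 0.149 for CDKN1B to 0.720 for ANK3.

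The gamma and beta members of the synuclein family were not called. SNCG, gamma-synuclein, stood at 126.6, 106.8, 123.8 and 123.1 CPM in alpha-synuclein libraries and at 85.4, 109, 90.2 and 104 CPM in wild-type libraries (0.30 ± 0.11, adjusted p = 0.342). Its groups overlapped. SNCB, beta-synuclein, was near the detection limit, with 0 counts in 3 of the 4 wild-type libraries (1.27 ± 1.03, adjusted p = 0.799), and its fold change was -0.74 without the libraries that carry 4 barcode numbers.

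Genes listed for dopamine handling or as midbrain transcription factors were not called, with 1 exception among the latter. Of all genes tested 0.651% were called, so lists of this size would mostly hold 0 called genes. TH, tyrosine hydroxylase, which makes the dopamine precursor L-DOPA, stood at 419, 321, 323 and 331 CPM in alpha-synuclein libraries and at 377, 401, 354 and 363 CPM in wild-type libraries. The groups overlapped, and alpha-synuclein replicate 1 was the highest of all 8 (adjusted p = 0.890). Of 15 genes for dopamine synthesis, storage and breakdown 12 were tested and 0 called (median log2 fold change 0.0767), and the smallest adjusted p was that of DBH, dopamine beta-hydroxylase, which converts dopamine to noradrenaline: 24.2, 21.8, 26.2 and 31.6 CPM in alpha-synuclein and 17.2, 13.9, 13.5 and 14.9 CPM in wild-type libraries, without overlap (0.80 ± 0.23, adjusted p = 0.123). Of 13 genes listed as midbrain dopaminergic transcription factors 9 were tested and 1 was called, BNC2, a zinc-finger factor, which was lower. It stood at 21.7, 16.0, 18.9 and 10.1 CPM in alpha-synuclein and at 28.7, 39.6, 25.6 and 27.8 CPM in wild-type libraries (-0.88 ± 0.20, adjusted p = 0.0389). That call was lost without any 1 of the untreated libraries other than alpha-synuclein replicate 1 (adjusted p 0.0528 to 0.160). LMX1A, FOXA2 and PITX3, 3 factors that define this lineage, had 0 counts in all 8 libraries. CEBPB, a transcription factor that the design text names beside quercetin, and AKR1C3, an aldo-keto reductase, were not called, with 3.14, 3.03, 4.14 and 3.03 CPM of CEBPB in alpha-synuclein libraries and 2.12, 3.47, 3.36 and 2.49 CPM in wild-type libraries. AKR1C3 averaged 0.903 ± 0.289 CPM in alpha-synuclein and 0.754 ± 0.512 CPM in wild-type cells (SD, n = 4 each).

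AC068446.3, an unprocessed pseudogene on the minus strand of chr15:21250180-21260147, had 3.14, 7.16, 4.64 and 6.63 CPM in alpha-synuclein libraries, against 0, 0, 0 and 0.108 CPM in wild-type libraries. It was thus seen in all 4 alpha-synuclein libraries, with 325 counts in all, and in wild-type cells by 1 count in replicate 4. The ratio of pooled levels was 150 with a 95% counting interval of 26.7 to 5929 (edgeR adjusted p = 1.03e-06). Reads of pseudogenes can match other gene copies, so the source of these counts is uncertain.

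**Figure D2:**
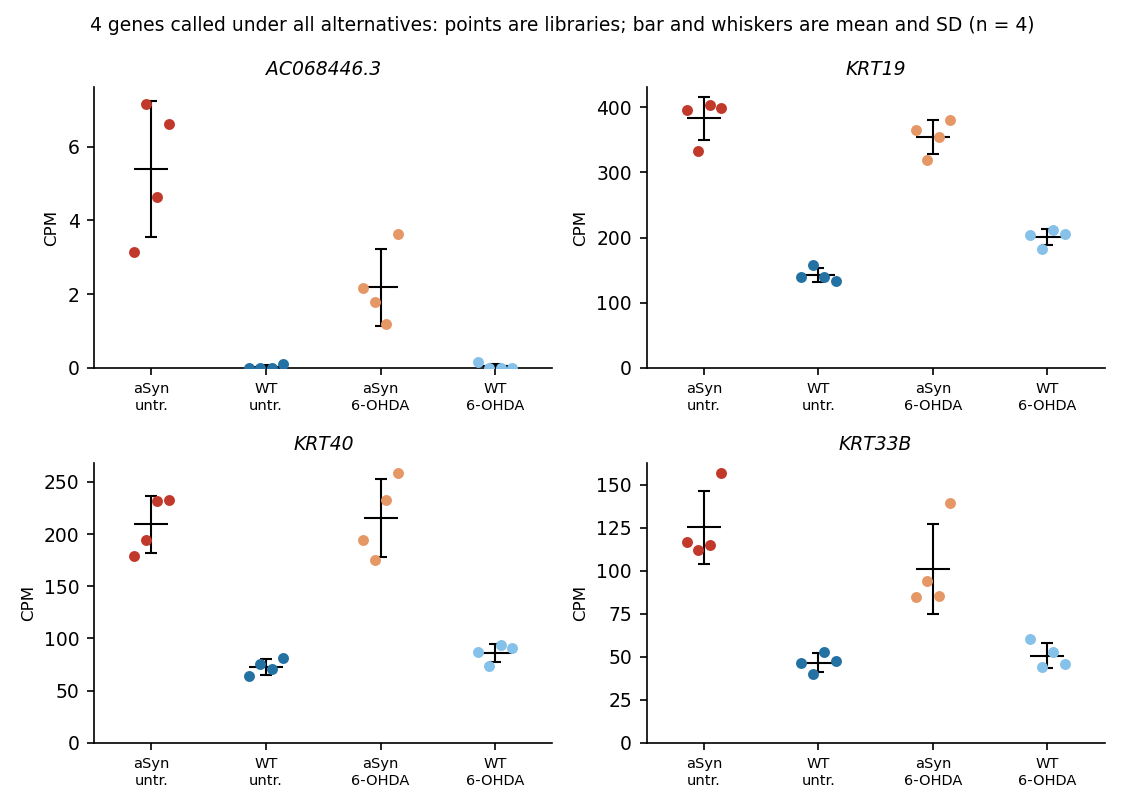
Levels in CPM (y axes, from 0) of 4 genes called in every alternative analysis, in 4 groups of 4 libraries: untreated alpha-synuclein and wild-type cells, and the same genotypes under 6-OHDA. Each point is 1 library, bars and whiskers are mean and SD; in all 4 panels the untreated alpha-synuclein libraries lie above the untreated wild-type libraries.

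Several type I keratin genes of chromosome 17 were higher. Keratins are the intermediate filament proteins of epithelia and hair, built from pairs of a type I and a type II chain. Of 28 type I genes listed 10 were tested, 4 were called, all higher, and all 10 had a positive fold change, with a median of 1.36. The smallest log2 fold change, 0.00093, hardly differed from 0, and that of KRT12 was 0.11 ± 0.37. The genes with these values lie outside the keratin stretch described below. KRT19, a keratin of simple epithelia without the tail domain of other keratins, stood at 397, 333, 403 and 399 CPM in alpha-synuclein libraries and at 139, 158, 139 and 134 CPM in wild-type libraries. The groups were far apart, and alpha-synuclein replicate 2 was the lowest of its group (1.43 ± 0.08, adjusted p = 7.74e-11).

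KRT40, a keratin of the hair cuticle, stood at 179, 195, 232 and 233 CPM in alpha-synuclein libraries, against 63.7, 75.2, 70.6 and 81.6 CPM in wild-type libraries (1.52 ± 0.12, adjusted p = 9.44e-08). KRT33B, a hair cortex keratin, stood at 116.6, 112.4, 115.2 and 157.2 CPM in alpha-synuclein libraries, against 46.2, 39.8, 52.9 and 47.5 CPM in wild-type libraries (1.43 ± 0.16, adjusted p = 2.39e-05). In both genes the groups did not overlap, and the highest library of all was alpha-synuclein replicate 4. KRT39, another hair keratin, was called at lower levels, 2.14, 3.10, 3.41 and 4.74 CPM in alpha-synuclein and 1.47, 1.10, 0.934 and 1.08 CPM in wild-type libraries (1.57 ± 0.26, adjusted p = 0.00308). KRTAP2-3, a keratin-associated protein of the hair matrix, stood at 2.00, 1.86, 2.01 and 3.03 CPM in alpha-synuclein and at 0.653, 0.547, 0.374 and 0.973 CPM in wild-type libraries (1.72 ± 0.35, adjusted p = 0.0191). The groups did not overlap in either gene, but the call of KRTAP2-3 was lost without alpha-synuclein replicate 4, wild-type replicate 1 or wild-type replicate 3 (adjusted p 0.0674 to 0.104). The call of KRT39 held without each library in turn. It was lost in the 8 untreated libraries alone (adjusted p = 0.0664) and without both libraries that carry 4 barcode numbers (0.161).

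The called keratin genes lie on the minus strand of chromosome 17, between KRT39 (chr17:40958417-40966892) and KRT19 (chr17:41523617-41528308). For a description a stretch of 666.4 kb was drawn from KRT39 to KRT17 (chr17:41619441-41624842), with ends set after the fold changes were seen, so that its values against those of the flanks are no test. All 9 genes tested in it had a positive fold change, 0.40 to 1.72 with a median of 1.43, and 5 were called. The 4 others were KRT33A (1.30 ± 0.32, adjusted p = 0.0687), KRT17 (1.67 ± 0.47, adjusted p = 0.130), KRT34 (0.80 ± 0.48) and KRT15 (0.40 ± 0.39), each below 3 CPM in every one of the 8 libraries. KRT33A was called without alpha-synuclein replicate 2 (adjusted p = 0.0464) and KRT17 without wild-type replicate 2 (0.00847). Of the 24 genes tested within 500 kb on either side 0 were called, and their median was 0.0485. On the side of KRT39 the nearest tested gene was KRT12, a keratin of the cornea, at 0.11 ± 0.37, and its sign turned without alpha-synuclein replicate 1 (-0.03) or wild-type replicate 2 (-0.08). On the side of KRT17 the nearest were EIF1, a translation initiation factor, at 0.07 ± 0.07 and HAP1, huntingtin-associated protein, at 0.64 ± 0.15 (adjusted p = 0.0522). HAP1 stood at 18.7, 20.5, 23.6 and 22.5 CPM in alpha-synuclein and at 11.8, 16.8, 10.3 and 15.8 CPM in wild-type libraries, without overlap, and was called without alpha-synuclein replicate 2 (adjusted p = 0.0464) or wild-type replicate 2 (0.0300). KRT33A and KRT33B, like the copies of KRTAP2-3, are near-identical in sequence, so their shares of the counts are uncertain. The deposited table lists 58 genes in the stretch, of which 22 had 0 counts in all 8 libraries.

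**Figure D3:**
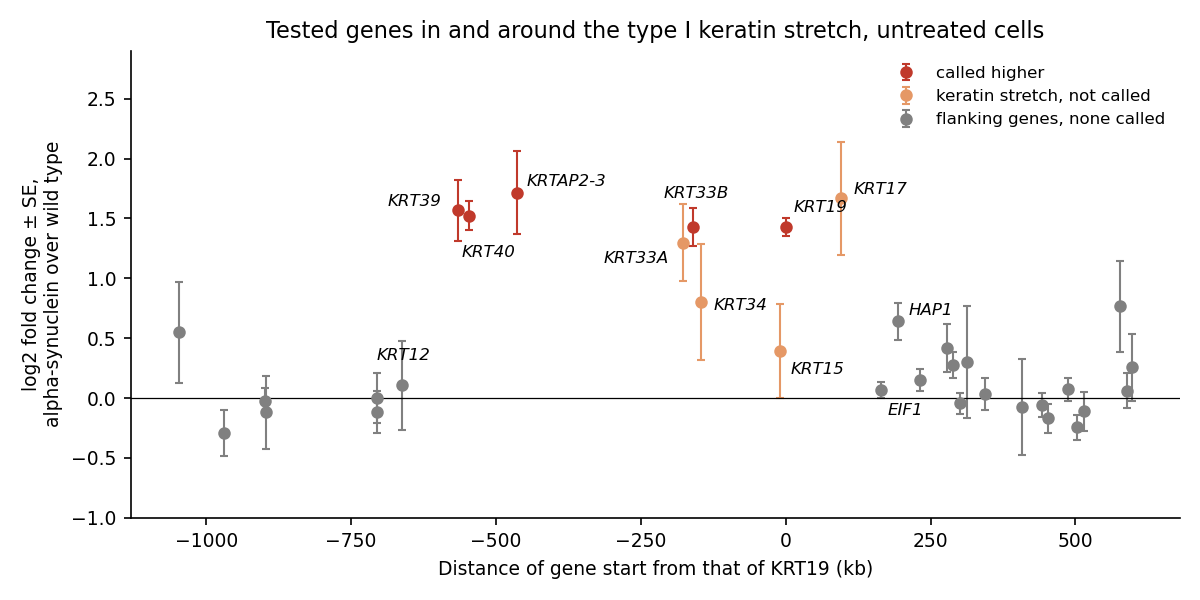
Log2 fold change ± SE of alpha-synuclein over wild type (y axis) for the 9 genes tested in the keratin stretch and the 24 within 500 kb of it, by the distance of each gene's start from that of KRT19 in kb (x axis). The 5 called genes (red) lie between 1.43 and 1.72, and no flanking gene (grey) was called; the ends of the stretch were set after the fold changes were seen.

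Promoter windows are shown for the 3 called keratin genes that RefSeq's table for GRCh38.p14 holds, because these genes moved together, and for SEMA3D, the lower gene called most often. Each runs from 250 bases before to 50 after the transcription start, 5′ to 3′ on the gene's strand, which is minus in all 4: chr17:41369764-41370063 for KRT33B, chr17:40966899-40967198 for KRT39, chr17:40987086-40987385 for KRT40 and chr7:85187007-85187306 for SEMA3D. Capitals mark matches on either strand to 5 motifs: the TATA box TATAAA, the CAAT box CCAAT, the GC box GGGCGG, the AP-1 motif TGANTCA and the E-box CACGTG. Variants of these letters, such as tatataag in the KRT39 window, were not searched for and stay in lower case.
KRT33B: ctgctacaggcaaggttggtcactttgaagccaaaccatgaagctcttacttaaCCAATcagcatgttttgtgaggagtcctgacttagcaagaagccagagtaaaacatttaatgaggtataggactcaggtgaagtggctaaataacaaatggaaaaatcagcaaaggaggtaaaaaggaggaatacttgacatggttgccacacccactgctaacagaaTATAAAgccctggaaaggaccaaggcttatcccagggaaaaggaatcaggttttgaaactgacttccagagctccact
KRT39: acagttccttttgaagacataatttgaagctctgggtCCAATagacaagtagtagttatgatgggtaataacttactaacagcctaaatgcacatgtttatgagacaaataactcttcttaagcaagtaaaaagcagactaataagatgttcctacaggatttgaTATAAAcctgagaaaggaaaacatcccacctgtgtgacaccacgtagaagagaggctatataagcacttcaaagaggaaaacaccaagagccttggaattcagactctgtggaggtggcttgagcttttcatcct
KRT40: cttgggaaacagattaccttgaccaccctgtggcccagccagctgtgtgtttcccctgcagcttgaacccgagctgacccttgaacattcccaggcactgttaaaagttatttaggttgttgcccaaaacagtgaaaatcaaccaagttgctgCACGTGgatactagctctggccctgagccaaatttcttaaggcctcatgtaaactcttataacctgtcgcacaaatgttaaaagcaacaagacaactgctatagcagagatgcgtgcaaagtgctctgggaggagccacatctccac
SEMA3D: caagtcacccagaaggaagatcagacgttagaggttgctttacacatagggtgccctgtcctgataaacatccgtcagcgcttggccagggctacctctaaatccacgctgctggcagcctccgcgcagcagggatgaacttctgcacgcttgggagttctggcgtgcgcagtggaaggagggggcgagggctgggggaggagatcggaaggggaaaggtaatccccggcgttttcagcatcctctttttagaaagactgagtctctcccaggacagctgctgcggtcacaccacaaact
The KRT33B window holds TATAAA at -28 to -23 and CCAAT at -196 to -192, counted from the start base as 0. In the KRT39 window TATAAA lies at -85 to -80 and CCAAT at -213 to -209, and in the KRT40 window CACGTG lies at -97 to -92. None of the 5 motifs is in the SEMA3D window. Among all 35116 windows of the table, TATAAA is in 11.5%, CCAAT in 34.6%, GGGCGG in 45.0%, TGANTCA in 7.7% and CACGTG in 7.3%, and no motif was shared by the 3 keratin windows. RefSeq's table holds 4 windows for KRT40, of which the one nearest the annotated gene start was read.

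The partners of these keratins and other epithelial genes were not called. Of 26 type II keratin genes listed 24 were in the table and 14 had 0 counts in all 8 libraries. KRT8, the usual partner of KRT19, was the one type II gene tested and stood at 3.72, 3.17, 2.29 and 2.91 CPM in alpha-synuclein and at 4.90, 2.55, 4.86 and 3.24 CPM in wild-type libraries (-0.38 ± 0.24, adjusted p = 0.711). Of 10 epithelial markers 6 were tested and 0 called, and their summed level was 26.6 to 34.7 CPM in alpha-synuclein and 22.2 to 29.2 CPM in wild-type libraries. Neuronal filament genes did not pass the threshold, and 4 of 5 had a negative fold change. NEFM, the medium neurofilament chain, stood at 2006, 1980, 1775 and 1659 CPM in alpha-synuclein and at 2134, 2234, 2428 and 2190 CPM in wild-type libraries (-0.28 ± 0.07, adjusted p = 0.0698), and NEFL, the light chain, at 1413, 1480, 1333 and 1186 CPM in alpha-synuclein and at 1563, 1901, 1697 and 1673 CPM in wild-type libraries (-0.34 ± 0.09, adjusted p = 0.0751). The groups did not overlap in either gene, and both were called without alpha-synuclein replicate 2 (adjusted p = 0.0370 and 0.0364), a setting with 239 calls in all. The summed level of 5 neuronal filament genes was 3236 to 3868 CPM in alpha-synuclein and 4112 to 4699 CPM in wild-type libraries.

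Of the semaphorin, plexin and neuropilin genes, which guide axons, 2 were called lower and 1 higher in alpha-synuclein cells. SEMA3D, a secreted semaphorin that steers growing axons, stood at 22.3, 27.6, 19.7 and 15.4 CPM in alpha-synuclein libraries, against 47.5, 53.5, 58.3 and 61.0 CPM in wild-type libraries. The groups were far apart, and alpha-synuclein replicate 4 was the lowest of the 8 (-1.38 ± 0.15, adjusted p = 2.39e-05). PLXNA4, a plexin through which secreted semaphorins signal, stood at 40.29, 33.33, 33.02 and 19.72 CPM in alpha-synuclein and at 51.8, 73.9, 76.2 and 70.9 CPM in wild-type libraries (-1.12 ± 0.21, adjusted p = 0.00984). NRP1, the co-receptor neuropilin 1, did not pass, at 19.0 ± 3.54 CPM in alpha-synuclein and 28.2 ± 3.45 CPM in wild-type cells (-0.58 ± 0.14, adjusted p = 0.0507), and passed without alpha-synuclein replicate 1 (0.0188). SEMA5B, a transmembrane semaphorin, was higher, at 208, 168, 193 and 199 CPM in alpha-synuclein and 143, 150, 148 and 146 CPM in wild-type libraries (0.39 ± 0.09, adjusted p = 0.0361). Of 31 semaphorins, plexins and neuropilins 30 were tested, 2 called lower and 1 called higher, with a median of 0.0405. Their summed level was 6158 to 6959 CPM in alpha-synuclein and 6054 to 6116 CPM in wild-type libraries. The call of PLXNA4 was lost without alpha-synuclein replicate 4 or wild-type replicate 3 (adjusted p 0.0544 to 0.0585), and that of SEMA5B without any 1 of the libraries other than alpha-synuclein replicate 2 (0.0528 to 0.147). Without both libraries that carry 4 barcode numbers the adjusted p was 0.375 for PLXNA4 and 0.503 for SEMA5B.

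Among netrin and Slit-Robo genes 18 were in the table, 16 were tested and 1 was called, with a median of -0.00665. UNC5C, a netrin receptor that mediates repulsion, stood at 4.72, 2.76, 3.30 and 2.46 CPM in alpha-synuclein and at 9.80, 8.57, 6.35 and 6.92 CPM in wild-type libraries (-1.29 ± 0.28, adjusted p = 0.0327). Its relative UNC5D stood at 83.4, 117, 97.4 and 66.4 CPM in alpha-synuclein and at 144, 141, 141 and 164 CPM in wild-type libraries (-0.70 ± 0.17, adjusted p = 0.0665). Neither gene's groups overlapped. DAB1, the adaptor that relays the reelin signal inside the cell, was the 1 called gene of 13 tested in the reelin pathway and stood at 2.14, 3.03, 2.35 and 1.43 CPM in alpha-synuclein, against 5.39, 8.57, 6.73 and 6.60 CPM in wild-type libraries (-1.60 ± 0.34, adjusted p = 0.0266). Of 17 tested ephrins and Eph receptors 0 were called and 12 had a negative fold change (median -0.155). The call of UNC5C was lost without any 1 of the libraries other than alpha-synuclein replicate 1 (adjusted p 0.0552 to 0.175), and that of DAB1 without any but alpha-synuclein replicate 2 or wild-type replicate 1 (0.0618 to 0.152), while UNC5D was called without alpha-synuclein replicate 2 (0.0166).

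A few protocadherin genes were called, 3 of them lower and 1 higher. PCDH10, a non-clustered protocadherin of axons, stood at 24.6, 21.5, 21.3 and 13.9 CPM in alpha-synuclein libraries and at 39.9, 72.8, 43.2 and 43.4 CPM in wild-type libraries (-1.30 ± 0.21, adjusted p = 0.00327). PCDHGA5, of the clustered gamma-protocadherins, stood at 28.7, 25.8, 21.6 and 19.8 CPM in alpha-synuclein and at 42.5, 43.2, 47.6 and 43.2 CPM in wild-type libraries (-0.89 ± 0.13, adjusted p = 0.00111). In both the groups were apart, and alpha-synuclein replicate 4 was the lowest library. PCDHGA6, which shares its constant exons with PCDHGA5 so that counts of both are not independent, averaged 69.1 ± 10.2 CPM in alpha-synuclein and 104 ± 7.52 CPM in wild-type cells (-0.59 ± 0.11, adjusted p = 0.00969). PCDH20, another non-clustered protocadherin, was higher, at 77.87, 100.2, 90.46 and 103.3 CPM in alpha-synuclein and 61.7, 60.9, 67.8 and 65.6 CPM in wild-type libraries (0.54 ± 0.12, adjusted p = 0.0266). A list of cadherins and protocadherins held PCDH10 and PCDH20 but not PCDHGA5, PCDHGA6 or CDH23, which was also called higher; of its 24 genes 22 were tested, 1 was called higher and 1 lower, and 16 had a negative fold change (median -0.188). The call of PCDHGA6 was lost without alpha-synuclein replicate 4 (adjusted p = 0.0585), and that of PCDH20 without any 1 of the libraries but alpha-synuclein replicates 1 and 2 (0.0532 to 0.141). Those of PCDH10 and PCDHGA5 held without each library in turn. Both were lost without both libraries that carry 4 barcode numbers (0.172 and 0.129), and PCDH10 also in the 8 untreated libraries alone (0.0510). Without those libraries of 4 barcode numbers the adjusted p was 0.415 for PCDHGA6 and 0.442 for PCDH20.

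Other called genes that were lower, from no list and grouped after their values were seen, were CDON, a co-receptor of hedgehog signalling, ISLR2, a leucine-rich repeat protein of neurite outgrowth, and PKP4, a plakophilin of cell junctions. CDON averaged 66.3 ± 6.87 CPM in alpha-synuclein and 94.4 ± 2.58 CPM in wild-type cells (-0.51 ± 0.09, adjusted p = 0.00812). ISLR2 averaged 20.9 ± 3.21 CPM in alpha-synuclein and 34.9 ± 4.36 CPM in wild-type cells (-0.75 ± 0.13, adjusted p = 0.00670). PKP4 averaged 76.7 ± 6.55 CPM in alpha-synuclein and 110 ± 6.22 CPM in wild-type cells (-0.52 ± 0.08, adjusted p = 0.00303; SD, n = 4 in each group for all 3). None of the 3 had overlapping groups, and of the 3 calls that of CDON was lost without alpha-synuclein replicate 4 (adjusted p = 0.0585). Without both libraries that carry 4 barcode numbers all 3 were lost (adjusted p 0.157 for CDON, 0.297 for ISLR2 and 0.217 for PKP4). CDON and ISLR2 were also lost in the 8 untreated libraries alone (0.0510 and 0.0543). Of 16 tested immunoglobulin-class adhesion molecules 0 were called and 11 had a negative fold change (median -0.265). The largest was NEGR1, a neuronal growth regulator, whose libraries scattered widely: 1.00, 6.68, 3.19 and 0.686 CPM in alpha-synuclein and 1.80, 15.1, 16.4 and 20.9 CPM in wild-type libraries (-2.19 ± 0.56, adjusted p = 0.0745). It was called without alpha-synuclein replicate 2 (0.0115) or wild-type replicate 1 (0.0135).

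KIF21B, FEZ1, MAPT, PDE4DIP and ANK3 were lower in alpha-synuclein cells; of these MAPT comes from a list, and the others were set beside it after their values were seen. KIF21B, a kinesin motor that also limits microtubule growth, stood at 152, 125, 133 and 72.8 CPM in alpha-synuclein libraries, against 254, 294, 247 and 225 CPM in wild-type libraries (-1.08 ± 0.16, adjusted p = 0.00149). FEZ1, an adaptor that links cargo to kinesin 1 and takes part in axon outgrowth, stood at 22.6, 22.3, 24.1 and 15.3 CPM in alpha-synuclein and at 41.2, 49.3, 43.5 and 38.3 CPM in wild-type libraries (-1.03 ± 0.17, adjusted p = 0.00419). In both genes the groups were well apart and alpha-synuclein replicate 4 was the lowest. MAPT, which encodes the microtubule protein tau, stood at 65.01, 60.33, 55.99 and 45.43 CPM in alpha-synuclein and at 87.0, 93.2, 91.6 and 80.1 CPM in wild-type libraries (-0.64 ± 0.14, adjusted p = 0.0298). PDE4DIP, or myomegalin, a protein of the centrosome and Golgi, stood at 121, 144, 117 and 121 CPM in alpha-synuclein and at 180, 177, 180 and 179 CPM in wild-type libraries (-0.51 ± 0.07, adjusted p = 0.000350). ANK3, ankyrin G of the axon initial segment, averaged 429 ± 49.5 CPM in alpha-synuclein and 558 ± 25.1 CPM in wild-type cells (-0.38 ± 0.08, adjusted p = 0.0323; SD, n = 4 each). MAPT was the 1 called member of 18 tested neuronal microtubule genes, of which 14 had a negative fold change (median -0.0824). Its call was lost without alpha-synuclein replicate 3 or 4 or wild-type replicate 1, 2 or 3 (adjusted p 0.0603 to 0.160), and that of ANK3 without alpha-synuclein replicate 3 or 4 or wild-type replicate 1, 3 or 4 (0.0849 to 0.161). The calls of KIF21B, FEZ1 and PDE4DIP held without each library in turn. KIF21B was lost in the 8 untreated libraries alone (0.0510). FEZ1 and PDE4DIP were lost without both libraries that carry 4 barcode numbers (0.143 and 0.0639), where the adjusted p of MAPT was 0.651 and that of ANK3 0.720.

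Vesicle, peptide and receptor genes among the lower set were SYNPR, SCG5, NSG1, SHISA6 and GALR1. SYNPR, synaptoporin, a synaptic vesicle membrane protein, stood at 4.43, 7.23, 4.97 and 4.00 CPM in alpha-synuclein and at 21.1, 10.8, 12.3 and 11.1 CPM in wild-type libraries (-1.41 ± 0.23, adjusted p = 0.00327). SHISA6, an auxiliary subunit of AMPA-type glutamate receptors, stood at 14.4, 15.8, 10.0 and 11.6 CPM in alpha-synuclein and at 55.4, 32.7, 25.8 and 22.4 CPM in wild-type libraries (-1.40 ± 0.22, adjusted p = 0.00187). Wild-type replicate 1 was the highest library in both. GALR1, a receptor of the neuropeptide galanin, stood at 13.4, 16.1, 11.1 and 11.7 CPM in alpha-synuclein and at 33.8, 24.5, 31.2 and 18.6 CPM in wild-type libraries (-1.04 ± 0.17, adjusted p = 0.00276). SCG5, the 7B2 chaperone of the prohormone convertase PCSK2, stood at 0.7144, 1.377, 0.9499 and 1.029 CPM in alpha-synuclein, against 6.04, 7.48, 2.62 and 2.70 CPM in wild-type libraries (-2.15 ± 0.43, adjusted p = 0.0177). NSG1, a neuronal endosome protein that takes part in receptor recycling, averaged 207 ± 28.8 CPM in alpha-synuclein and 304 ± 41.8 CPM in wild-type cells (-0.55 ± 0.10, adjusted p = 0.00978; SD, n = 4 each). In none of the 5 did the groups overlap. The calls of SYNPR, SHISA6 and GALR1 held without each library in turn but were lost in the 8 untreated libraries alone (adjusted p 0.0527, 0.0644 and 0.0543) and without both libraries that carry 4 barcode numbers (0.241, 0.161 and 0.218). That of NSG1 was lost without alpha-synuclein replicate 4 (adjusted p = 0.0585), and that of SCG5 without alpha-synuclein replicate 1, 3 or 4 or wild-type replicate 1 or 2 (0.0550 to 0.0875). Without both libraries that carry 4 barcode numbers the adjusted p was 0.252 for NSG1 and 0.411 for SCG5.

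Most genes of these classes were not called, as in all genes tested, of which 0.651% were called. SYNPR was the 1 called of 27 tested genes of synaptic vesicles and release (median -0.00498), SHISA6 the 1 of 26 glutamate receptor and auxiliary subunit genes (median 0.016) and SCG5 the 1 of 10 neuropeptide and dense-core granule genes (median -0.265). Of 8 tested GABA receptor genes 0 were called (median -0.055), and of 26 voltage-gated channel genes 0 (median -0.0303). SLC8A1, the plasma membrane sodium-calcium exchanger, was the 1 called of 17 genes of calcium exchange, pumping and release (median -0.05), and stood at 3.43, 3.58, 2.85 and 2.57 CPM in alpha-synuclein and at 9.47, 9.12, 6.54 and 8.11 CPM in wild-type libraries (-1.43 ± 0.20, adjusted p = 0.000585). Its groups were well apart, and the call held without each library in turn but was lost without both libraries that carry 4 barcode numbers (adjusted p = 0.0892).

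Single members of metabolic lists and a chromatin gene were lower too. ASS1, argininosuccinate synthase, which makes the precursor of arginine, stood at 12.1, 13.4, 13.6 and 13.2 CPM in alpha-synuclein and at 21.9, 42.0, 28.0 and 27.1 CPM in wild-type libraries (-1.17 ± 0.23, adjusted p = 0.0108). SPTSSB, a small subunit of serine palmitoyltransferase, the first enzyme of sphingolipid synthesis, stood at 2.29, 3.17, 2.24 and 2.51 CPM in alpha-synuclein and at 6.86, 6.39, 5.79 and 8.65 CPM in wild-type libraries (-1.44 ± 0.30, adjusted p = 0.0205). SFMBT2, a Polycomb group protein, stood at 11.7, 16.7, 14.7 and 12.2 CPM in alpha-synuclein and at 26.8, 23.4, 28.4 and 27.2 CPM in wild-type libraries (-0.93 ± 0.12, adjusted p = 0.000215). The groups did not overlap in any of the 3 genes. ASS1 was the 1 called of 9 tested arginine and urea cycle genes, of which 8 had a negative fold change (median -0.176), and SPTSSB the 1 called of 18 sphingolipid genes (median -0.0764), while 0 of 21 genes of cholesterol synthesis were called (median -0.0471). The call of ASS1 was lost without alpha-synuclein replicate 4 (adjusted p = 0.0585), and that of SPTSSB without alpha-synuclein replicate 1, 3 or 4 or wild-type replicate 1 or 4 (0.0543 to 0.104). Without both libraries that carry 4 barcode numbers the adjusted p was 0.265 for ASS1 and 0.459 for SPTSSB.

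**Figure D4:**
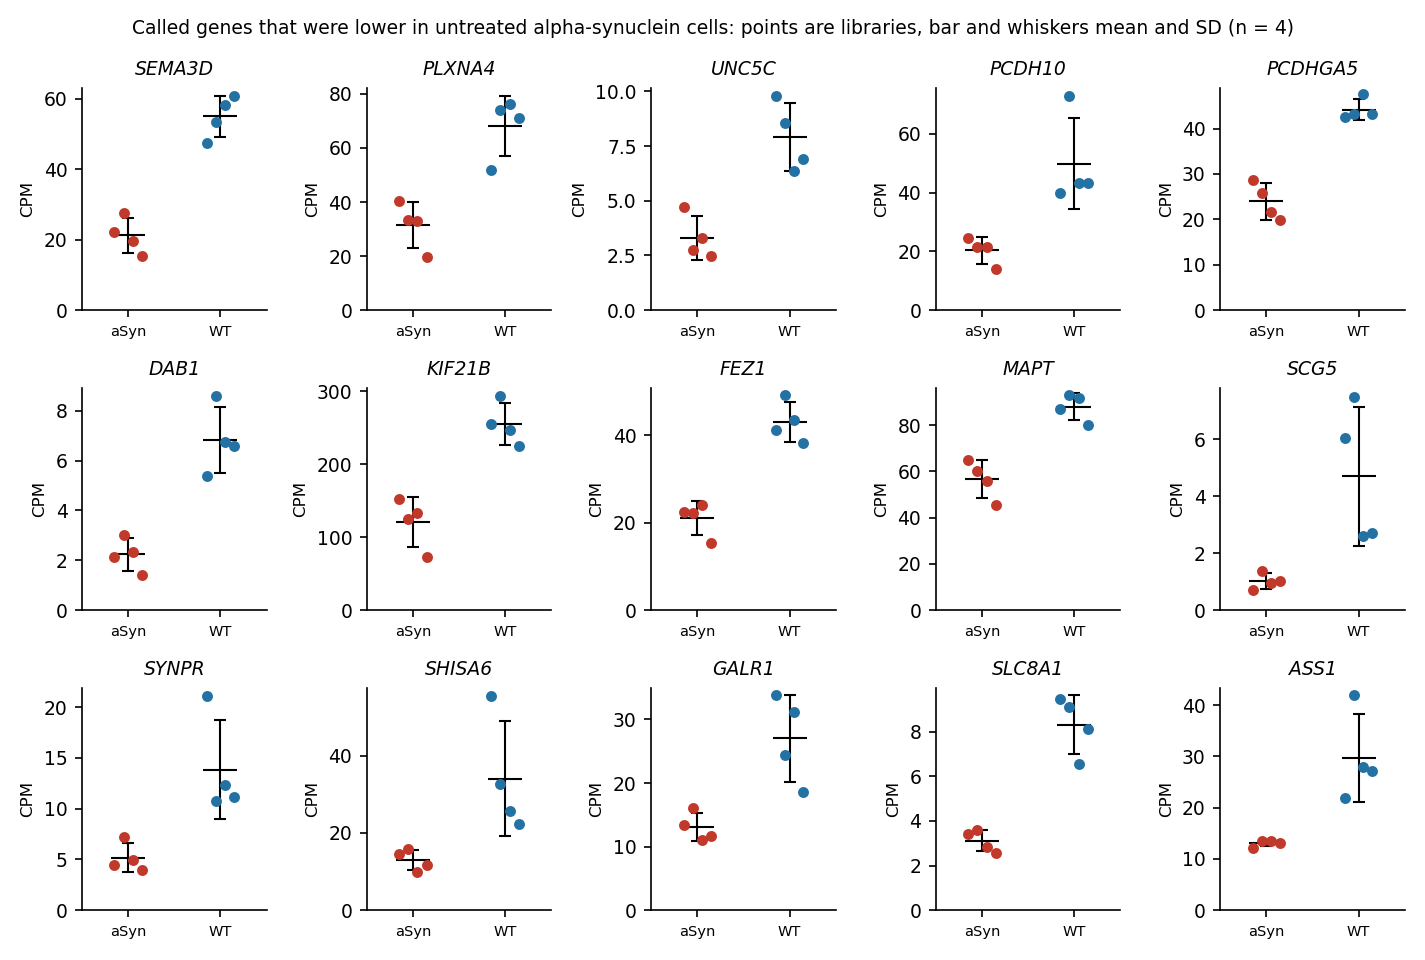
Levels in CPM (y axes, from 0) of 15 called genes that were lower in untreated alpha-synuclein cells, with 1 point per library in 4 alpha-synuclein (left) and 4 wild-type libraries (right), and mean and SD. The groups overlap in none of the 15 panels, and wild-type libraries scatter most in SCG5, SYNPR and SHISA6.

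Receptor genes stood among those that were higher in alpha-synuclein cells. GPR142, a G protein-coupled receptor activated by aromatic amino acids, stood at 34.7, 34.9, 40.5 and 49.2 CPM in alpha-synuclein libraries, against 17.3, 21.2, 16.6 and 15.2 CPM in wild-type libraries (1.19 ± 0.19, adjusted p = 0.00200). ADGRB1, an adhesion receptor that recognises apoptotic cells and acts at synapses, stood at 153.4, 102.7, 120.7 and 152.2 CPM in alpha-synuclein and at 51.6, 86.3, 68.8 and 67.9 CPM in wild-type libraries (0.95 ± 0.14, adjusted p = 0.00170). The groups did not overlap in either gene, and both calls held without each library in turn. Without both libraries that carry 4 barcode numbers both were lost (adjusted p = 0.129 for GPR142 and 0.0534 for ADGRB1), and ADGRB1 also in the 8 untreated libraries alone (0.0514). ADGRA1, another adhesion receptor, averaged 20.0 ± 4.34 CPM in alpha-synuclein and 12.3 ± 1.34 CPM in wild-type cells (0.70 ± 0.14, adjusted p = 0.0160; SD, n = 4 each), and its call was lost without alpha-synuclein replicate 1 or 4 or wild-type replicate 3 or 4 (0.0544 to 0.106). Over the list of adhesion G protein-coupled receptors 16 were tested, these 2 were called, and 13 had a positive fold change (median 0.124).

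A few genes of the extracellular matrix were higher, with log2 fold changes of 0.53 to 0.66. LAMA5, a laminin chain of basement membranes, stood at 473.3, 392.3, 501.6 and 543.6 CPM in alpha-synuclein and at 315, 382, 295 and 315 CPM in wild-type libraries (0.55 ± 0.10, adjusted p = 0.00977). SPARC, a collagen-binding matrix glycoprotein, averaged 79.7 ± 6.62 CPM in alpha-synuclein and 50.9 ± 11.3 CPM in wild-type cells (0.66 ± 0.13, adjusted p = 0.0146). COL5A1, a chain of fibrillar collagen V, averaged 76.7 ± 10.5 CPM in alpha-synuclein and 52.9 ± 3.03 CPM in wild-type cells (0.53 ± 0.11, adjusted p = 0.0191). SPON2, a secreted F-spondin family protein, averaged 69.5 ± 10.4 CPM in alpha-synuclein and 44.1 ± 4.98 CPM in wild-type cells (0.65 ± 0.12, adjusted p = 0.00670; SD, n = 4 in each group). None of the 4 had overlapping groups, though in LAMA5 the lowest alpha-synuclein and the highest wild-type library were close. They were chosen after their values were seen and not from a list of matrix genes, so no count over such a list is given. The call of LAMA5 was lost without alpha-synuclein replicate 4 or wild-type replicate 3 (adjusted p 0.0552 to 0.0609), that of SPARC without either of these or wild-type replicate 4 (0.0574 to 0.0793), and that of COL5A1 without alpha-synuclein replicate 1 or 4 or wild-type replicate 3 or 4 (0.0619 to 0.0903). That of SPON2 was lost in the 8 untreated libraries alone (0.0725), without both libraries that carry 4 barcode numbers (0.0534) and with a GC trend fitted per library (0.0545).

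Several other called genes are known from development and the inner ear. CDH23, a cadherin of hair-cell tip links, stood at 244, 220, 226 and 282 CPM in alpha-synuclein and at 164, 176, 148 and 150 CPM in wild-type libraries (0.61 ± 0.09, adjusted p = 0.00149). ESPN, espin, an actin-bundling protein of stereocilia, stood at 820, 642, 701 and 929 CPM in alpha-synuclein and at 482, 520, 468 and 494 CPM in wild-type libraries (0.65 ± 0.12, adjusted p = 0.00984). HES2, a bHLH repressor, averaged 141 ± 22.7 CPM in alpha-synuclein and 88.6 ± 5.79 CPM in wild-type cells (0.67 ± 0.11, adjusted p = 0.00448). It lies next to ESPN in the opposite direction, and their annotated spans do not overlap (chr1:6412418-6424670 for HES2 and chr1:6424776-6461367 for ESPN). Unstranded reads of both could be mixed only where transcripts run past these spans. In all 3 the groups were apart and replicate 4 was the highest alpha-synuclein library. SHISA2, an inhibitor of Wnt and FGF receptor maturation, averaged 49.8 ± 4.63 CPM in alpha-synuclein and 33.7 ± 2.44 CPM in wild-type cells (0.57 ± 0.08, adjusted p = 0.000350). The transcription factors SIM2 (0.71 ± 0.13, adjusted p = 0.0106), of midline development, and SHOX2 (0.56 ± 0.11, adjusted p = 0.0100), of limb and heart development, were also higher. The calls of CDH23, HES2 and SHISA2 held without each library in turn but were lost without both libraries that carry 4 barcode numbers (adjusted p 0.0526 to 0.0534), and those of HES2 and SHISA2 also in the 8 untreated libraries alone (0.0510 each). That of ESPN was lost without alpha-synuclein replicate 4 or wild-type replicate 3 (adjusted p 0.0544 to 0.0704), that of SIM2 without alpha-synuclein replicate 4 (0.0788) and that of SHOX2 without that library or wild-type replicate 1 (0.0562 to 0.0717).

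A few higher genes had low or scattered levels. KLHL40, a kelch protein of muscle, stood at 7.57, 7.44, 8.61 and 9.54 CPM in alpha-synuclein and at 3.76, 4.56, 2.24 and 3.68 CPM in wild-type libraries (1.22 ± 0.23, adjusted p = 0.00984), and its call was lost without alpha-synuclein replicate 4 or wild-type replicate 3 (0.0552 to 0.0585). IFI44, an interferon-induced gene, stood at 3.72, 11.0, 11.9 and 11.8 CPM in alpha-synuclein and at 1.96, 4.38, 2.62 and 4.65 CPM in wild-type libraries, so that alpha-synuclein replicate 1 overlapped the wild-type group (1.497 ± 0.343, adjusted p = 0.0423). Its call was lost without any 1 of the libraries but alpha-synuclein replicate 1 (0.0517 to 0.161), and it was the 1 called of 18 tested interferon-stimulated and MHC class I genes (median 0.0511). CDKN1B, the cell-cycle inhibitor p27, stood at 5.43, 0.482, 3.07 and 0.743 CPM in alpha-synuclein libraries and had 0 counts in all 4 wild-type libraries. Against a floor of 3 counts over the wild-type group its pooled level was at least 17.3-fold higher, and the alpha-synuclein libraries spread widely. Its adjusted p was 0.0389, and the call was lost without alpha-synuclein replicate 1 or 3 or any 1 of the wild-type libraries (0.0614 to 0.146).

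Lists of stress and protein quality control genes held no called gene, where 0.651% of all genes tested were called. At that share most lists of this size would hold 0 called genes. Of 18 NRF2 targets 0 were called (median -0.0419), of 18 ATF4 targets 0 (median 0.0863), of 19 p53 targets 0 (median 0.114), and of 15 ER chaperone and unfolded protein response genes 0 (median 0.0991, 14 of them positive). Of 25 proteasome subunit genes 0 were called (median 0.0266). Nor were any of 14 tested cytosolic heat shock protein genes (median 0.142), 20 autophagy and lysosome genes (median -0.00772), 13 tested familial Parkinson disease genes (median -0.0365) or 12 tested immediate-early genes (median 0.159). Single uncalled members lay far from these medians. Log2 fold changes ran from -0.384 to 2.25 among heat shock genes, -0.798 to 3.12 among immediate-early genes and -0.252 to 1.94 among p53 targets. BTG2, an antiproliferative p53 target, stood at 58.4, 44.8, 49.7 and 52.5 CPM in alpha-synuclein and at 30.1, 43.6, 30.3 and 37.1 CPM in wild-type libraries (0.54 ± 0.14, adjusted p = 0.0751). Its groups did not overlap, and it was called without alpha-synuclein replicate 2 (0.0396) or wild-type replicate 2 (0.0287). A p that misses the threshold does not show that these genes were equal.

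All 13 mitochondrially encoded mRNAs had a positive fold change, with a median of 0.298, and 0 were called. Their share of counts was 0.868% to 1.20% in alpha-synuclein and 0.869% to 1.01% in wild-type libraries (exact two-sided permutation test p = 0.2). Of 25 nuclear-encoded respiratory chain genes 0 were called (median 0.0235).

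Markers of cell types gave no called gene, and with 0.651% of all genes tested called, lists this short would mostly hold 0. Of 13 pan-neuronal markers, all tested, 9 had a negative fold change (median -0.192), and their summed level was 12710 to 15380 CPM in alpha-synuclein and 14950 to 16303 CPM in wild-type libraries. In bulk RNA, fewer cells of a type and less RNA per cell cannot be told apart. Summed levels were 53.2 to 74.3 CPM in alpha-synuclein and 56.4 to 73.9 CPM in wild-type libraries for 8 astrocyte markers, and 125 to 160 CPM in alpha-synuclein and 123.1 to 140.3 CPM in wild-type libraries for 8 oligodendrocyte markers, with MAG at 0 counts in all 8 libraries. For 7 microglia markers, with AIF1 at 0 counts in all 8, they were 6.27 to 7.77 CPM in alpha-synuclein and 4.93 to 7.35 CPM in wild-type libraries, for 8 fibroblast markers 26.2 to 33.7 CPM in alpha-synuclein and 18.31 to 33.02 CPM in wild-type libraries, and for 4 skeletal muscle markers 112 to 188 CPM in alpha-synuclein and 97.4 to 205 CPM in wild-type libraries. Of 10 tested progenitor and proliferation genes 0 were called (median 0.0403), with sums of 561 to 814 CPM in alpha-synuclein and 479 to 687 CPM in wild-type libraries. All these ranges overlapped between the genotypes, and their part in the gene differences was not tested.

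Base composition moved with the direction of change. The median GC content of the longest transcript was 57.8% in the 62 higher genes, 46.0% in the 46 lower genes and 48.5% in all genes tested. Across 16573 genes, which are not independent replicates, the log2 fold change had a Spearman correlation of 0.28 with GC content. The count-weighted GC content of the libraries was 49.66% to 51.01% in alpha-synuclein and 49.7% to 50.4% in wild-type libraries (exact two-sided permutation test p = 0.229). With a GC trend fitted per library, an analysis chosen after these values were seen, 96 genes were called, 50 higher and 46 lower, and 81 of the 108 were among them. Its part in each gene's difference was not tested.

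The same genes were read in 6-OHDA-treated cells of both genotypes, in 4 alpha-synuclein and 4 wild-type libraries. Their levels do not enter the untreated fold changes, but the fit to all libraries used them in the estimate of spread and so in the calls. There alpha-synuclein libraries were on lane 2 and wild-type libraries on lane 1, so genotype and lane cannot be told apart, and 27.3% of all genes tested were called, 14.4% higher and 12.9% lower. Of the 62 genes higher in untreated alpha-synuclein cells, 16 were called higher and 15 called lower under 6-OHDA, and 31 were not called. Of the 46 lower genes, 8 were called lower, 3 called higher and 35 not called. The difference between the treated and untreated effects, an interaction term, had an adjusted p under 0.05 for 60 of the 108 genes, against 21.6% of all genes tested. That term holds the untreated difference by which the 108 genes were chosen. A higher share among them is thus partly set by that choice and is no test. With the GC trend 4 genes, against 18 without it, were called in the opposite direction under 6-OHDA.

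Keratin genes were higher in alpha-synuclein cells under 6-OHDA too. KRT40 averaged 215 ± 37.7 CPM in treated alpha-synuclein and 86.1 ± 9.09 CPM in treated wild-type cells (1.34 ± 0.13, adjusted p = 1.82e-06; interaction 0.484), and KRT33B 100.9 ± 26.2 CPM in treated alpha-synuclein and 50.7 ± 7.42 CPM in treated wild-type cells (0.99 ± 0.17, adjusted p = 0.000235; interaction 0.182). All 9 tested genes of the keratin stretch were positive and 6 were called. The difference was smaller under 6-OHDA for KRT19, at 355 ± 26.1 CPM in treated alpha-synuclein and 201 ± 12.7 CPM in treated wild-type cells (0.82 ± 0.08, interaction adjusted p = 0.000964). The treated wild-type mean of KRT19 was above the untreated wild-type mean of 142 CPM. AC068446.3 stood at 2.19 ± 1.04 CPM in treated alpha-synuclein and 0.0377 ± 0.0753 CPM in treated wild-type cells (SD, n = 4 in each group), and in the quercetin and rutin groups of alpha-synuclein cells at 1.59 ± 0.588 and 2.23 ± 0.507 CPM (SD, n = 3 each).

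Among the lower genes KIF21B (-0.83 ± 0.19, adjusted p = 0.00257), PCDHGA5 (-0.62 ± 0.15, adjusted p = 0.00415), ISLR2 (-0.44 ± 0.15, adjusted p = 0.0323), NSG1 (-0.42 ± 0.11, adjusted p = 0.00824) and SCG5 (-2.05 ± 0.62, adjusted p = 0.0165) were also called lower in treated alpha-synuclein cells. SEMA3D was not, at 3.79 ± 0.953 CPM in treated alpha-synuclein and 4.40 ± 0.661 CPM in treated wild-type cells, levels far below those of untreated cells (interaction adjusted p = 0.00493). ANK3 was called in the opposite direction, at 144 ± 13.3 CPM in treated alpha-synuclein and 96.8 ± 10.0 CPM in treated wild-type cells (0.59 ± 0.09, adjusted p = 0.000116; interaction 0.000174). CDKN1B was called lower, at 1.95 ± 1.41 CPM in treated alpha-synuclein and 8.51 ± 1.65 CPM in treated wild-type cells (-2.25 ± 0.67, adjusted p = 0.0170; SD, n = 4 in each group).

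**Figure D5:**
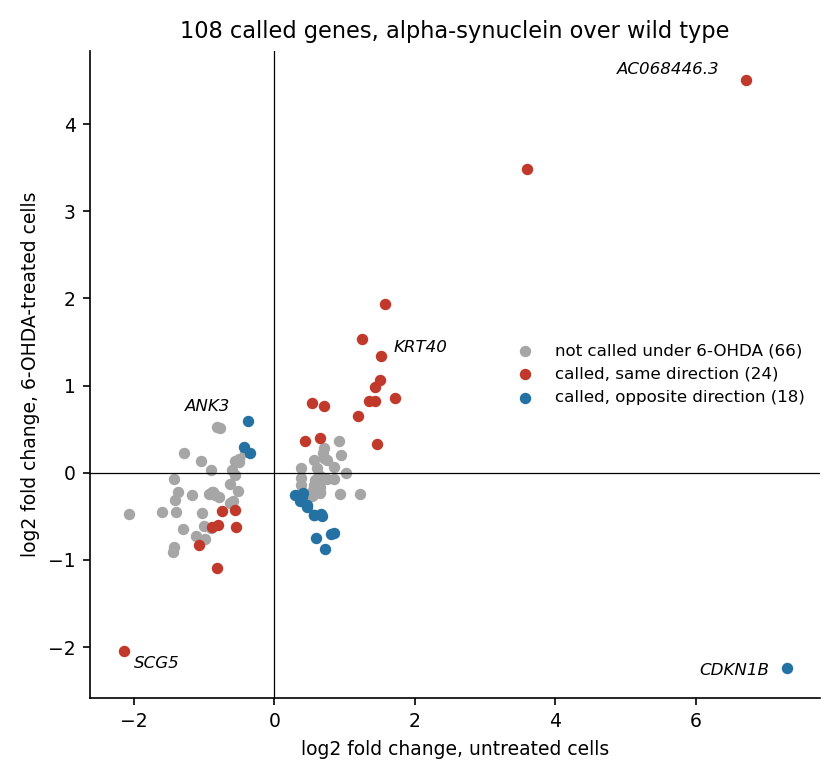
Log2 fold change of alpha-synuclein over wild type under 6-OHDA (y axis) against that in untreated cells (x axis) for the 108 called genes, 1 point per gene. Of these, 24 were called in the same direction under 6-OHDA (red), 18 in the opposite direction (blue) and 66 were not called (grey).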

How the data were processed

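Polyadenylated RNA of 22 libraries in 6 groups was sequenced after preparation with an MGIEasy kit, per the labels' protocols. The deposited values were estimated counts per Ensembl gene, all whole numbers, without normalisation. The submitters' processing notes list Trimmomatic 0.38, kallisto 0.46.2 and the builds GRCh38 and hg38 but not what each was used for. Kallisto in general divides reads that match several transcripts, so near-identical genes are uncertain. Strand use, annotation release and read filters go unnamed in these sources.

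Column names were matched to the labels and groups taken from titles. In R 4.3.3 with edgeR 4.0.16, filterByExpr with a minimum count of 10 kept 16601 of 34679 genes and set aside 0.1745% of counts, TMM scaled the libraries, and glmQLFit and glmQLFTest were fitted to group means of all 22 libraries, with Benjamini-Hochberg adjustment over the genes tested. Each SE was derived from the log2 fold change and its F value. Positions are from GENCODE 29, in which 34658 IDs (99.9%) matched without version, and promoters from RefSeq. Within each untreated group library pairs differed by 3.59 to 26.2 in chi-square over degrees of freedom, so none was counted as a copy. Floors and intervals cover counting error only. The scripts were tested on simulated data.

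The 43 gene lists held 738 genes. The table has 705 of them, 601 passed the filter and the others are not analysed here. Lists were described by counts and medians, without a list test. With 0.651% of all genes tested called, 0 calls in a list of such size is near that share and says little about its members. The members, lists and tests were chosen with earlier results of these data known. Genes were named by a rule: 6 fixed genes, the 25 called genes of largest change in either direction that averaged at least 5 CPM in a group and whose groups did not overlap, the 10 smallest adjusted p in either direction, up to 4 called members of a list or, with none called, the 2 of smallest p, and genes within 500 kb of the 3 leading genes. The text names part of these, and some genes are not reported here. The following were picked with their values in view and lie outside it: CDKN1B, LAMA5, SPARC, COL5A1, SPON2, ESPN, SHOX2, NRP1, UNC5D, PCDHGA6, CDON, ISLR2, NSG1, ANK3 and KRT12. Alternatives used other size factors, DESeq2 1.42.0, no filter, fewer libraries, thinned counts, a replicate block and a GC trend.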

Additional observations from a re-analysis of the deposited data

Results flagged for a closer look

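Single libraries stood apart from the other 3 of their group in 17 of 148 tests, over the CPM of the 69 named genes and 5 measures of the libraries, by Dixon's test with a limit of 0.829, which chance passes in about 1 in 20 groups. High single alpha-synuclein libraries were TH (419 CPM, replicate 1), CEBPB (4.14 CPM, replicate 3), KRT33B (157 CPM, replicate 4), KRTAP2-3 (3.03 CPM, replicate 4) and PDE4DIP (144 CPM, replicate 2). Low ones were KRT19 (333 CPM, replicate 2) and IFI44 (3.72 CPM, replicate 1), and the number of genes with a count was lowest in replicate 1 (20391). High single wild-type libraries were SNCB (0.757 CPM), AC068446.3 (0.108 CPM) and UNC5D (164 CPM) in replicate 4, PCDH10 (72.8 CPM) and NSG1 (367 CPM) in replicate 2, PCDHGA5 (47.6 CPM) in replicate 3 and SYNPR (21.1 CPM) in replicate 1. For SNCB and AC068446.3 the other 3 wild-type libraries had 0 counts. Any count would be flagged there, so the rate of 1 in 20 does not hold for them. SPON2 was low in wild-type replicate 2 (36.7 CPM), and wild-type replicate 4 held the most counts (10.61 M counts).

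For 29 named genes the genotype effect under 6-OHDA differed from that in untreated cells, with interaction adjusted p of 0.000174 to 0.0481 from edgeR's quasi-likelihood test. In treated cells lane follows genotype, so treatment and lane cannot be told apart in these differences. The interaction also holds the untreated difference, for which many of the named genes were chosen, so their number is no test. Given as the treated minus the untreated log2 fold change, the values below 0 were CDKN1B -9.54, KLHL40 -1.46, BTG2 -1.42, CEBPB -1.34, ESPN -0.89, SPON2 -0.82, TH -0.80, COL5A1 -0.79, HAP1 -0.79, LAMA5 -0.75, ADGRB1 -0.74, SHISA2 -0.71, HES2 -0.71, SEMA5B -0.62, KRT19 -0.61, SNCG -0.60 and CDH23 -0.56. The fitted value of CDKN1B depends on the prior count, since all 4 untreated wild-type libraries had 0 counts. Values above 0 were UNC5D 1.55, UNC5C 1.51, SLC8A1 1.36, GALR1 1.18, SEMA3D 1.16, ANK3 0.97, SHISA6 0.95, ASS1 0.92, NRP1 0.69, SFMBT2 0.69, PDE4DIP 0.67 and CDON 0.63.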

How the results depend on the processing

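The number of calls moved with the libraries and tools used. Against 108 calls (62 higher, 46 lower, 32 at least 2-fold), DESeq2 gave 230 (145 higher, 85 lower), the 8 untreated libraries alone 23 (9, 14, 15 at least 2-fold), libraries thinned to equal depth 73 (36, 37) and no filter 131 (84, 47, 46). Leaving out each untreated library gave 33 (20 higher, 13 lower, 16 at least 2-fold) to 239 (117 lower and the others higher, 55). Without both libraries that carry 4 barcode numbers there were 11 (7, 4, 9), and without treated alpha-synuclein replicate 4 there were 197 (125, 72). Over all genes tested, same-numbered libraries did not deviate together (correlations of 0.05, -0.14, -0.04 and 0.06). These correlations cannot show whether the numbers pair libraries, since a shared culture or batch may touch few genes. With a replicate block 7 were called (7 higher, 0 lower, 7 at least 2-fold) and 1226 had an unadjusted p under 0.05 by edgeR. A GC trend gave 96 calls and the 8 libraries without alpha-synuclein replicate 4 gave 11 (7, 4, 9); both were chosen after seeing the data. Under the GC trend 4 genes, not 18, were called in the opposite direction under 6-OHDA.

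Of 1292 values of named genes 978 kept direction and side of the threshold, 275 lost and 34 gained a call and 5 turned sign: SNCB -0.74 without the libraries that carry 4 barcode numbers, AKR1C3 -0.0703 in the same setting, and KRT12 -0.20 thinned, -0.03 without alpha-synuclein replicate 1 and -0.0783 without wild-type replicate 2, in a range up to 0.271 over single libraries left out. The causes were not tested. Wild-type depth limits genes near 0.324 to 0.561 CPM.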
